A study of Mus musculus with 12 samples.

Results

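Collagens are the main protein of cartilage matrix, and their transcripts were described here in primary epiphyseal chondrocytes of mice that carried or lacked the phosphatases Phlpp1 and Phlpp2. The members are all rows of the deposited count table whose gene symbol is Col, a type number, the letter a and a chain number, which gave 44 genes of 49315. They comprise 11 fibrillar chains, 9 FACIT chains (collagens that sit on the surface of fibrils), 3 network-forming chains, 9 chains of the basement membrane group, 4 transmembrane chains and 8 others, mainly collagen VI. Of the 44 genes, 40 had enough counts to be tested, and Col19a1, Col6a4, Col6a5 and Col6a6 did not pass the filter on low counts.

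RNA was sequenced from 12 libraries, 3 each of wild type (WT), Phlpp1 KO (Phlpp1-/-), Phlpp2 KO (Phlpp2-/-) and Phlpp1/2 KO (Phlpp1/2-/-) chondrocytes, all from 5-day-old mice labelled female. Every group went through the same steps of collagenase II digestion, freezing, thawing and plating overnight in medium with serum, so all cells had been freed from their matrix and had spent a night in culture before RNA was taken. The labels name no Cre driver or promoter for the knockouts, and nothing in them says whether a library came from 1 mouse or from a pool. P-values therefore measure the spread between these libraries, part of which may be technical. The strain entry reads C57BL6 in 8 libraries and differs in its final number in 4, Phlpp2 KO 3 and the 3 Phlpp1/2 KO libraries. Each of those 4 has a different final number, running on by 1 from sample to sample, and whether the strain differed was not tested.

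Fibrillar collagens assemble from 3 chains wound into a triple helix, are secreted as procollagens with extensions at both ends, and join into fibrils after those extensions are cut off. In cartilage the fibril is a mixture in which collagen II is the bulk, collagen XI lies inside and limits the diameter, and collagen IX is bound on the surface. Collagen X is made by hypertrophic chondrocytes, collagen VI forms beaded filaments in the matrix next to the cell, and collagen I marks bone, tendon and fibrous tissue. PHLPP1 and PHLPP2 are phosphatases that remove activating phosphates from AKT and related kinases.

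Total counts were 21706337 to 33115345 per library, so 1 count corresponded to 0.0295 to 0.0453 CPM (counts scaled to a common library size, with TMM factors). Phlpp1 was at 35.1 to 43.8 CPM in WT, 8.77 to 9.46 in Phlpp1 KO and 7.71 to 8.83 in Phlpp1/2 KO. Phlpp2 was at 22.4 to 28.1 CPM in WT, 16.8 to 19.4 in Phlpp2 KO and 10.2 to 11.4 in Phlpp1/2 KO. The Xist level went against the label of sex in 2 libraries. Xist, the X-inactivation RNA of female cells, was at 13.9 CPM in Phlpp1 KO 1 and 3.77 in Phlpp1/2 KO 1. It was at 278 to 587 CPM in the other 10 libraries. Summed CPM of 4 Y-linked genes was 109 in Phlpp1/2 KO 1 but 0 in Phlpp1 KO 1, and at most 1.23 in the others. The sex of Phlpp1 KO 1 therefore stayed unclear. Col2a1, Col9a1, Col11a1, Col10a1 and Col1a1, the collagens given as markers of these cells, lay between 236 and 40259 CPM in all libraries, and 8 of 9 further chondrocyte markers (Acan, Sox9, Comp and others) were in the table and summed to 5361 to 8630 CPM. Osteoblast markers summed to 13.7 to 42.4 CPM, with Bglap, the osteocalcin gene, at 0.0295 to 0.268 CPM. Tendon and fibrous markers (7 of 7 genes in the table, 4 of them at a mean of 1 CPM or more and none at 0 in all libraries) summed to 336 to 413 CPM in WT, 242 to 372 in Phlpp1 KO, 441 to 484 in Phlpp2 KO and 266 to 375 in Phlpp1/2 KO. Dcn, the decorin gene, carried nearly all of this sum, at 190 to 437 CPM per library. The tendon regulator Scx did not follow it, at 29.2 to 31.0 CPM in WT, 35.1 to 36.7 in Phlpp1 KO, 27.8 to 38.3 in Phlpp2 KO and 31.5 to 37.8 in Phlpp1/2 KO. The part of these genes in the collagen values below was not tested. In bulk RNA, fewer cells of a type and less RNA per cell cannot be told apart.

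Collagen genes took up 3.92 to 6.51% of all counts in a library, and Col2a1 alone was 54.1 to 60.7% of those collagen counts. The fibrillar chains made up 73.9% of collagen counts on average, the collagen VI group and the other unclassified chains 17.97%, FACIT chains 6.24%, network chains 1.51%, the basement membrane group 0.397% and transmembrane chains 0.0234%. For comparison between genes, levels were divided by the length of the longest annotated coding transcript. The order depended in part on this choice: over merged exons Col2a1 had 3312 CPM per kb and Col6a2 263, below Col6a3 at 332, which took Col6a2 from rank 4 to rank 7. On the transcript scale Col2a1 averaged 5998 CPM per kb over the 12 libraries, and Col6a1 followed at 784, Col11a1 at 589, Col6a2 at 471, Col6a3 at 393, Col9a3 at 338, Col11a2 at 301, Col9a1 at 264, Col10a1 at 247 and Col9a2 at 217 CPM per kb. Neighbours in this order were mostly separated within libraries: Col2a1 was above Col6a1 in 12 of 12 libraries and Col6a1 above Col11a1 in 11 of 12. Col10a1 was above Col9a2 in only 7 of 12, so their order was not clear beyond the spread. After Col9a2 came levels of 89.3 CPM per kb for Col5a2 and 73.7 for Col1a2, and from Col4a2 downward all members were below 10 CPM per kb on average.

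**Figure D1:**
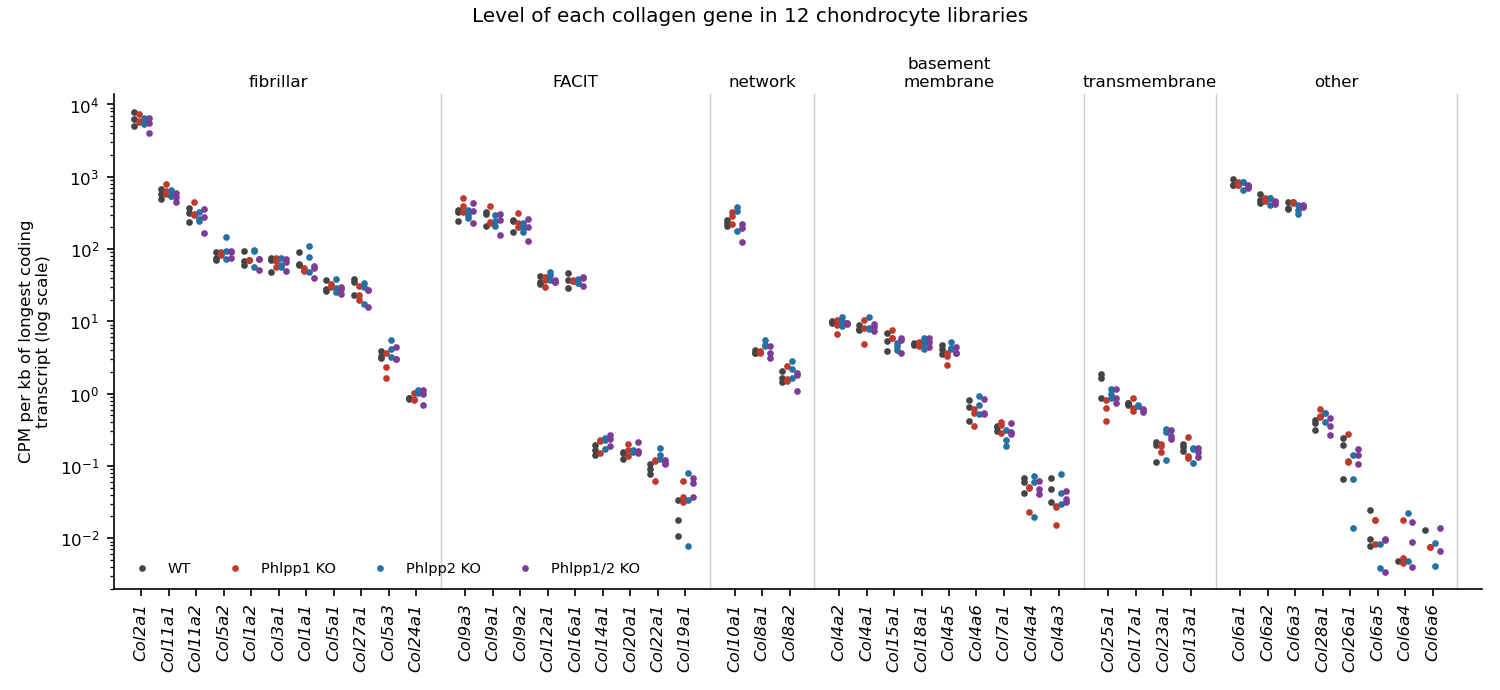
CPM per kb of the longest coding transcript (log scale) for the 44 collagen genes, grouped by type and ordered by mean, with 1 point per library coloured by genotype; libraries at 0 are not drawn. Col2a1 averaged 5998 CPM per kb, and members range from there to under 0.01 for the collagen VI chains Col6a4 and Col6a6.

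No collagen passed an adjusted p of 0.05 in edgeR's quasi-likelihood test in any comparison. In Phlpp1 KO against WT, 0 of 40 tested collagens were called, where 0.537% of all 16565 tested genes were. The other counts were also 0 of 40: in Phlpp2 KO against WT, where 0.121% of all genes were called, in Phlpp1/2 KO against WT (0.235%), in Phlpp1/2 KO against Phlpp1 KO (0.0121%), in Phlpp1/2 KO against Phlpp2 KO (0.0724%) and in the interaction of both losses (0.0483%). At these rates a list of 40 genes would hold less than 1 called gene, so the count of 0 is near the background. At an unadjusted p under 0.05 the collagens numbered 3, 3, 1, 3, 3 and 4 of 40 in the same order, or 7.5, 7.5, 2.5, 7.5, 7.5 and 10.0%, against 20.4, 13.8, 11.1, 7.90, 8.84 and 14.5% of all genes. DESeq2 called 1 collagen, Col25a1, of 32 with an adjusted p in Phlpp1 KO against WT, where it called 8.02% of all genes. It called 0 collagens in the other 5 comparisons, where 2.55, 1.01, 0.129, 0.258 and 5.16% of all genes were called in the same order. Limma-voom called 0 of 40 in all 6, with 0.513, 0.0785, 0.229, 0.0121, 0.0604 and 0.0423% of all genes called. Without the 2 libraries whose Xist level went against the label, edgeR also called 0 collagens in each of the 6. In that setting 0.108, 0.120, 0.167, 0.0120, 0.0179 and 0.0239% of all genes were called in the same order.

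The 95% intervals bound the size of change. In Phlpp1 KO against WT, 33 of 40 collagens had a 95% interval that stayed inside a 2-fold change in either direction, and 16 of 40 stayed inside 1.5-fold. The numbers inside 2-fold were 35 in Phlpp2 KO against WT and 33 in Phlpp1/2 KO against WT. The median log2 fold change of the collagens was -0.01 in Phlpp1 KO, 0.00 in Phlpp2 KO and -0.08 in Phlpp1/2 KO against WT, beside -0.01, -0.02 and 0.00 over all genes. Collagens varied more between libraries than most genes: the median biological coefficient of variation was 0.161 for collagens and 0.0963 for all tested genes.

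**Figure D2:**
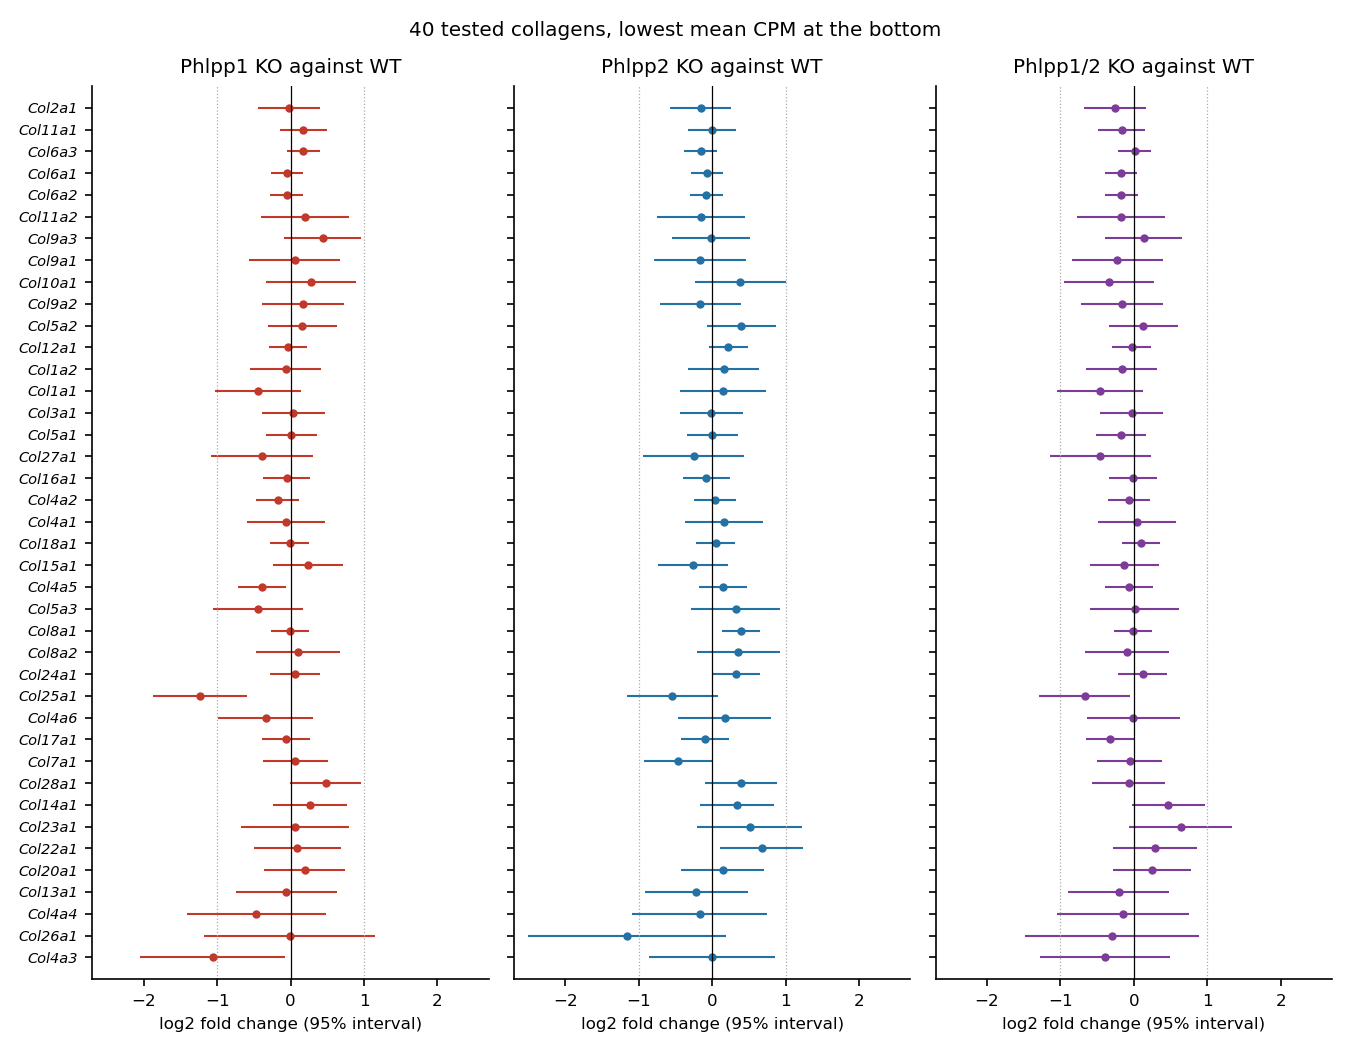
log2 fold change (points) and 95% interval (lines) of the 40 tested collagens in each knockout against WT, ordered by mean CPM; dotted lines mark a 2-fold change. Col25a1 in Phlpp1 KO lies farthest from 0 among members whose interval excludes 0, at -1.23, and the low-count members at the bottom have the widest intervals.

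The collagen II, IX and XI genes of the cartilage fibril overlapped between all genotypes. Col2a1, which encodes the single chain of collagen II, was at 26071, 32451 and 40259 CPM in WT, 38174, 29248 and 30113 in Phlpp1 KO, 27857, 27140 and 33544 in Phlpp2 KO and 28739, 33004 and 20753 in Phlpp1/2 KO. The highest value was in a WT library and the lowest in Phlpp1/2 KO 3, and every knockout group overlapped WT. Against WT the log2 difference was -0.02 in Phlpp1 KO, -0.16 in Phlpp2 KO and -0.26 in Phlpp1/2 KO, with adjusted p = 0.968, 0.767 and 0.654 (edgeR). Its 95% intervals were -0.44 to 0.40, -0.58 to 0.26 and -0.68 to 0.16. Col11a1, which encodes the first collagen XI chain, averaged 4498 ± 731 CPM in WT, 5076 ± 837 in Phlpp1 KO, 4500 ± 522 in Phlpp2 KO and 4004 ± 543 in Phlpp1/2 KO (SD, n = 3). Its adjusted p against WT was 0.551, 0.999 and 0.726 in that order (edgeR). Col11a2, encoding the second collagen XI chain, ranged from 1019 CPM in Phlpp1/2 KO 3 to 2726 in Phlpp1 KO 1.

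Col9a1, encoding the first chain of collagen IX, was at 810, 1159 and 1239 CPM in WT, 1534, 892 and 909 in Phlpp1 KO, 797, 928 and 1130 in Phlpp2 KO and 954, 1190 and 604 in Phlpp1/2 KO. Phlpp1 KO 1 was the highest of the 12 and Phlpp1/2 KO 3 the lowest, while the groups overlapped. Its log2 fold change against WT was 0.06 (SE 0.28), -0.17 (SE 0.28) and -0.22 (SE 0.28), with adjusted p = 0.933, 0.835 and 0.819 (edgeR). The Phlpp1 KO value rested on Phlpp1 KO 1 and was -0.25 without it, and the Phlpp1/2 KO value was 0.01 without Phlpp1/2 KO 3. Col9a2 and Col9a3, the partner chains, showed the same extremes, with Col9a2 at 384 to 932 CPM and Col9a3 at 691 to 1560. Col9a3 had the largest log2 fold change of the 3 chains in Phlpp1 KO, 0.44 with a 95% interval of -0.09 to 0.96 (adjusted p = 0.335, edgeR). An opposite-strand neighbour, Tcfl5, shares 6.07% of the exon length of Col9a3, and whether counting used strand is not given in the sources used here.

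**Figure D3:**
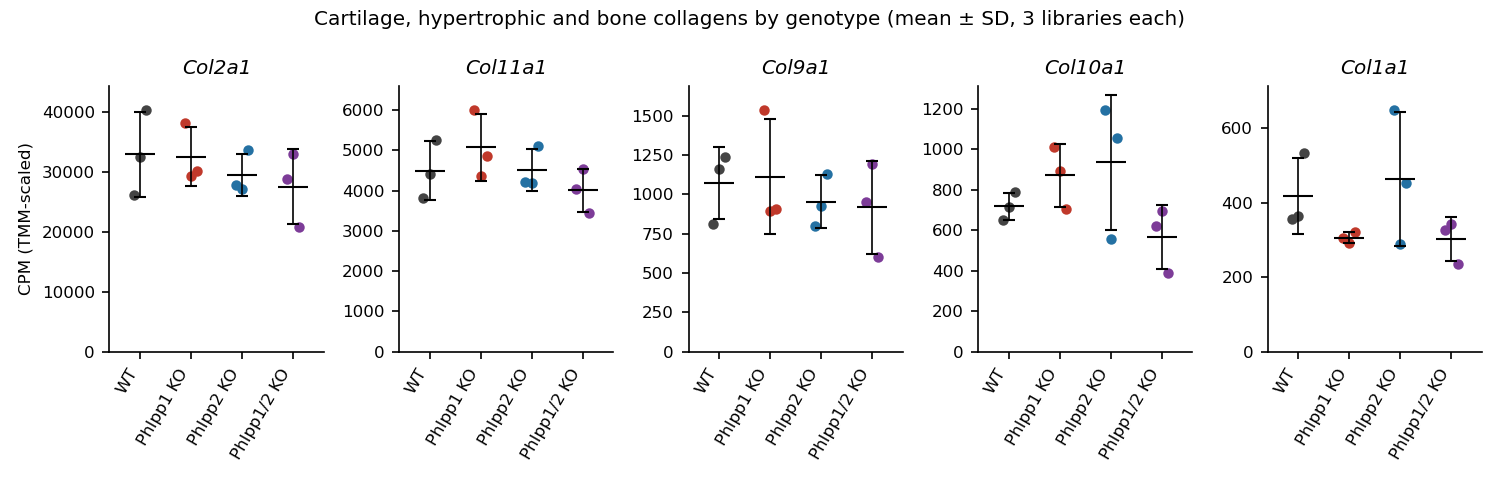
CPM of Col2a1, Col11a1, Col9a1, Col10a1 and Col1a1 by genotype, with 1 point per library and the mean ± SD of 3 libraries. The groups overlap for Col2a1, Col11a1 and Col9a1, and the Phlpp2 KO libraries are spread widely for Col10a1 (559 to 1194 CPM) and Col1a1 (288 to 648 CPM).

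Across the 12 libraries the genes of the cartilage fibril varied together with Col2a1. On log2 CPM, Col9a1 had a Pearson r with Col2a1 of 0.940 (Spearman rho 0.881) and Col11a1 of 0.913 (rho 0.951), with adjusted permutation p = 0.00014 for each r over 4 relations and 0.00078 and 0.00012 for the rho. Without the 2 libraries farthest from the median of Col2a1, WT 3 and Phlpp1/2 KO 3, r was 0.946 and 0.898. Using only deviations from the genotype means, r was 0.939 and 0.958, so the relation held within genotypes. Col11a2, chosen after the values were seen, had an r with Col2a1 of 0.955 (rho 0.979, permutation p = 1e-05 for each, the smallest that 100000 resamples can give). All points of a relation share the library scaling, and Col2a1 itself is the largest part of the collagen counts. The summed chondrocyte markers that are not collagens were at 8170 CPM in WT 3 and 5456 in Phlpp1/2 KO 3, within 5361 to 8630 over all libraries. Correlations of Col2a1 with genes other than collagens were not computed, so these r values have no background. Whether the fibril genes moved apart from other chondrocyte genes was not tested.

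Col10a1 and Col1a1 followed Col2a1 less closely. For Col10a1 the Pearson r was 0.627 (rho 0.587), with adjusted permutation p = 0.0397 for the r and 0.0644 for the rho. Its r was 0.416 (permutation p = 0.23) without WT 3 and Phlpp1/2 KO 3, so the value over all libraries rested in part on those. For Col1a1 the r was 0.444 (adjusted permutation p = 0.146) and the rho 0.406 (adjusted permutation p = 0.191). The r of Col1a1 was -0.10 without the same libraries. On deviations from the genotype means, Col10a1 had an r of 0.656 (adjusted permutation p = 0.0272) and a rho of 0.671 (permutation p = 0.0198). Col1a1 had an r of 0.531 (adjusted permutation p = 0.0742) and a rho of 0.678 (permutation p = 0.0185) there. The differences between these correlations were not tested.

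**Figure D4:**
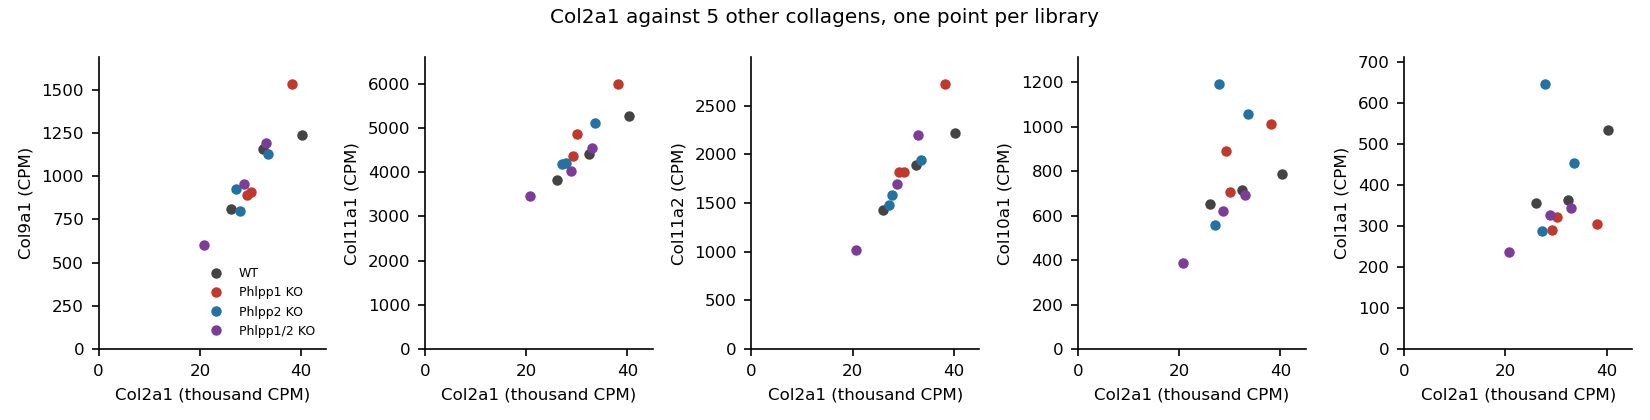
CPM of Col9a1, Col11a1, Col11a2, Col10a1 and Col1a1 against Col2a1 (CPM, on an axis divided by 1000), with 1 point per library coloured by genotype. Col9a1 (r 0.940), Col11a1 (r 0.913) and Col11a2 (r 0.955) lie close to a rising line, while Col10a1 (r 0.627) and Col1a1 (r 0.444) scatter.

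The 250 bases before the RefSeq start of Col9a1, Col11a1 and Col11a2, which moved with Col2a1, are shown beside those of Col10a1, which did so less. They come from RefSeq (GRCm38.p6), are written 5′ to 3′ on the plus strand, which is the coding strand of all 4 genes, and lie at chr1:24177360-24177609, chr3:114030290-114030539, chr17:34038888-34039137 and chr10:34389731-34389980 in that order. No annotated exon of any gene overlaps these windows. Capitals mark matches on either strand to GGGCGG (the GC box bound by SP factors), TATAAA (the TATA box), ACAAAG and ACAATG (cores bound by SOX factors) and TGTGGT (a core bound by RUNX factors).
Col9a1: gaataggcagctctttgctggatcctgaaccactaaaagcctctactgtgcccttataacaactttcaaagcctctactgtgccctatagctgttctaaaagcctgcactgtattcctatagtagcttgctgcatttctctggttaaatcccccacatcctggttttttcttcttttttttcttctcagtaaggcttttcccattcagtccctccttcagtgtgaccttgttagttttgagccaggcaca
Col11a1: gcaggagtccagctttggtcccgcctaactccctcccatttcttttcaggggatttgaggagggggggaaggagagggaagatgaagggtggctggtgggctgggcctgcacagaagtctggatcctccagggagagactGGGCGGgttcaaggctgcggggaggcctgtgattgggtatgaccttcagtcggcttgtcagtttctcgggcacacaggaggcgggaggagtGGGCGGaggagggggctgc
Col11a2: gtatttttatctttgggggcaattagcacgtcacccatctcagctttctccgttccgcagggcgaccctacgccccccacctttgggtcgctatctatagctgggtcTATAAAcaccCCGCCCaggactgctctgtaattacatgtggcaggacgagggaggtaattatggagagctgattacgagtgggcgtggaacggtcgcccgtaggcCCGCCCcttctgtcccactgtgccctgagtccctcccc
Col10a1: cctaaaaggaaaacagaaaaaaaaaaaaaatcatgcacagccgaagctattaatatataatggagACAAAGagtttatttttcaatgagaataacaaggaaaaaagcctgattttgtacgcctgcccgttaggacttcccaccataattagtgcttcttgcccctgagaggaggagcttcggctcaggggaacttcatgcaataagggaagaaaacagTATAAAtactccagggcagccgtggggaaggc

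The 4 windows differed in base composition, with 62.4% G and C for Col11a1, 57.6% for Col11a2, 43.6% for Col9a1 and 41.6% for Col10a1. GGGCGG was found at 2 places each in the Col11a1 and Col11a2 windows, in Col11a2 on the opposite strand and so printed as CCGCCC, and 33.0% of all 32536 RefSeq windows of this length hold it. With the last base before the RefSeq start as position -1, TATAAA began at -32 in Col10a1 and at -143 in Col11a2, and 12.3% of all windows hold it. In GENCODE vM21 the Col11a2 gene starts further downstream, at chr17:34039437, so positions in its window depend on the annotation. ACAAAG matched only in Col10a1, at -185 (16.5% of all windows), and ACAATG (10.5%) and TGTGGT (13.96%) matched in none of the 4. No match overlapped another. The Col9a1 window held none of the 5 motifs. Of the 44 collagens, 35 have a window in the table used.

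Col10a1, the marker of hypertrophic chondrocytes, was on average higher than WT in both single knockouts and lower in Phlpp1/2 KO, with none of these differences past the test. It was at 651, 715 and 788 CPM in WT, 1014, 893 and 706 in Phlpp1 KO, 1194, 559 and 1057 in Phlpp2 KO and 621, 694 and 387 in Phlpp1/2 KO. Against WT it differed by log2 0.28 (SE 0.28, adjusted p = 0.617, edgeR) in Phlpp1 KO, 0.38 (SE 0.28, adjusted p = 0.591) in Phlpp2 KO and -0.34 (SE 0.28, adjusted p = 0.697) in Phlpp1/2 KO against WT. The interaction of both losses, the departure of Phlpp1/2 KO from the sum of the single losses, had a 95% interval of -1.87 to -0.13 around a log2 value of -1.003, which did not pass (unadjusted p = 0.0279, adjusted p = 0.262). Phlpp1/2 KO lay below Phlpp1 KO without overlap, with a log2 fold change of -0.62 (adjusted p = 0.626, edgeR), and the value against Phlpp2 KO was -0.72 (adjusted p = 0.533).

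The other network chains belong to collagen VIII, found around vessels and in mesenchyme. Col8a1 was at 18.9, 18.6 and 20.4 CPM in WT, 19.0, 19.8 and 18.8 in Phlpp1 KO, 28.3, 23.5 and 24.3 in Phlpp2 KO and 18.7, 15.8 and 23.1 in Phlpp1/2 KO. All Phlpp2 KO libraries lay above all 9 others, and the log2 fold change of Phlpp2 KO against WT was 0.39 (SE 0.12), with the smallest adjusted p of any collagen in that comparison, 0.218 (edgeR). Against Phlpp2 KO, Phlpp1/2 KO had a log2 fold change of -0.40 (adjusted p = 0.499). Without Phlpp1/2 KO 3, the highest of its group, this became -0.56 (adjusted p = 0.0448) and the interaction -0.57 (adjusted p = 0.0223), both past the threshold. Over all alternatives the adjusted p ranged from 0.0448 to 0.95 and from 0.0223 to 0.559. Among the tendon and fibrous markers Dcn was also highest in Phlpp2 KO, at 381 to 437 CPM against 286 to 358 in WT, whereas Scx, Mkx and Thbs4 overlapped WT. Endothelial markers (Pecam1, Cdh5 and others) summed to 5.43 to 9.01 CPM in WT and 6.29 to 12.8 in Phlpp2 KO. Mural cell markers, carried mostly by Cspg4, summed to 562 to 686 CPM in WT and 561 to 639 in Phlpp2 KO. The part of these genes in the Col8a1 values was not tested. Col8a2 was lower, at 4.73 to 12.1 CPM, and did not follow Col8a1 (r 0.229, adjusted permutation p = 0.478).

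Among fibrillar chains outside the cartilage fibril, Col1a1 was lower in both genotypes that lack Phlpp1, though not past the test. Col1a1, encoding the main chain of collagen I, was at 356, 363 and 534 CPM in WT, 306, 291 and 322 in Phlpp1 KO, 648, 288 and 454 in Phlpp2 KO and 328, 344 and 236 in Phlpp1/2 KO. Neither Phlpp1 KO nor Phlpp1/2 KO overlapped WT, while Phlpp2 KO had values on both sides of the WT range. The log2 difference from WT was -0.45 (SE 0.26, adjusted p = 0.372, edgeR) in Phlpp1 KO, 0.15 (SE 0.26, adjusted p = 0.847) in Phlpp2 KO and -0.47 (SE 0.26, adjusted p = 0.55) in Phlpp1/2 KO. The Phlpp2 KO value rested on Phlpp2 KO 1 and was -0.17 without it. Of the marker lists, the tendon and fibrous sum averaged 294 CPM in Phlpp1 KO, 457 in Phlpp2 KO and 311 in Phlpp1/2 KO against 369 in WT, carried by Dcn, while Scx was higher than WT in both genotypes that lack Phlpp1. The osteoblast sum, mostly Sp7 and Ibsp, was 25.8 to 33.6 CPM in WT, 22.8 to 23.8 in Phlpp1 KO, 27.5 to 42.4 in Phlpp2 KO and 13.7 to 32.8 in Phlpp1/2 KO. Their part in the Col1a1 values was not tested.

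Col5a2, encoding a chain of collagen V that nucleates collagen I fibrils, was highest in Phlpp2 KO 1 as well, at 966 CPM, with the other 11 libraries at 463 to 622 CPM. Col1a2 ranged from 275 to 516 CPM, Col3a1, whose product accompanies collagen I in soft tissue, from 266 to 419, and Col5a1 from 200 to 320. Col27a1, a fibrillar chain of cartilage, was at 245 ± 63.4 CPM in WT, 187 ± 46.3 in Phlpp1 KO, 206 ± 66.7 in Phlpp2 KO and 178 ± 49.0 in Phlpp1/2 KO (SD, n = 3). Col5a3 and Col24a1 completed the group at means of 21.0 and 6.71 CPM, and the smallest adjusted p among the 11 fibrillar genes in any knockout against WT was 0.372 (edgeR).

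Collagen VI was the second collagen of these cells by amount, and its chain encoded by Col6a3 was out of step with the others in some genotypes. Col6a1 was at 2714 to 3858 CPM, Col6a2 at 1869 to 2661 and Col6a3 at 3049 to 4570. Col6a1 and Col6a2, neighbours 85.2 kb apart on chromosome 10, kept a nearly fixed ratio and varied together (r 0.977, rho 0.944, adjusted permutation p = 6e-05 and 0.00018). The pair was chosen for correlation after the values were seen. Col6a2 was 0.683 ± 0.014 of Col6a1 over the 12 libraries (SD), with an exact permutation p of 0.997 across genotypes. The ratio of Col6a3 to Col6a1 was 1.18, 1.13 and 1.18 in WT, 1.41, 1.37 and 1.31 in Phlpp1 KO, 1.12, 1.00 and 1.19 in Phlpp2 KO and 1.37, 1.27 and 1.33 in Phlpp1/2 KO. The 6 libraries that lack Phlpp1 by label (1.27 to 1.41) lay above the 6 that carry it (1.00 to 1.19).

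With all 12 libraries, that ratio was the only one of 18 sums and ratios to differ across the 4 genotypes past the threshold (exact permutation p = 0.00234, adjusted p = 0.0421 over the 18). The test uses the variance ratio of log2 values over 369600 assignments of the libraries, has no direction, and does not say which genotypes differ. Without the 2 libraries whose Xist level went against their label the adjusted permutation p was 0.081, on 10 libraries, and the remaining 4 libraries without Phlpp1 still lay at 1.27 to 1.37. Leaving out WT 2, WT 3 or any of the Phlpp1/2 KO libraries also raised the adjusted permutation p above the threshold, to between 0.0526 and 0.09. Col6a3 itself differed from WT by log2 0.17 (SE 0.11, adjusted p = 0.378, edgeR) in Phlpp1 KO and 0.01 (SE 0.11, adjusted p = 0.988) in Phlpp1/2 KO, and Col6a1 had -0.05 (SE 0.10, adjusted p = 0.827) and -0.17 (SE 0.10, adjusted p = 0.554). Col6a3 lies on chromosome 1, as Phlpp1 does, at 15.3 Mb from it, and the part of this position in the ratio was not tested. Within genotypes Col6a3 and Col6a1 moved together (r of deviations from genotype means 0.863, adjusted permutation p = 0.00019). Over all libraries r was 0.584 (adjusted permutation p = 0.0501) and rho 0.510 (adjusted permutation p = 0.113). The r over all libraries rested on WT 3 and Phlpp2 KO 1 and was 0.0998 without them. This pair, too, was chosen for correlation after the values were seen.

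**Figure D5:**
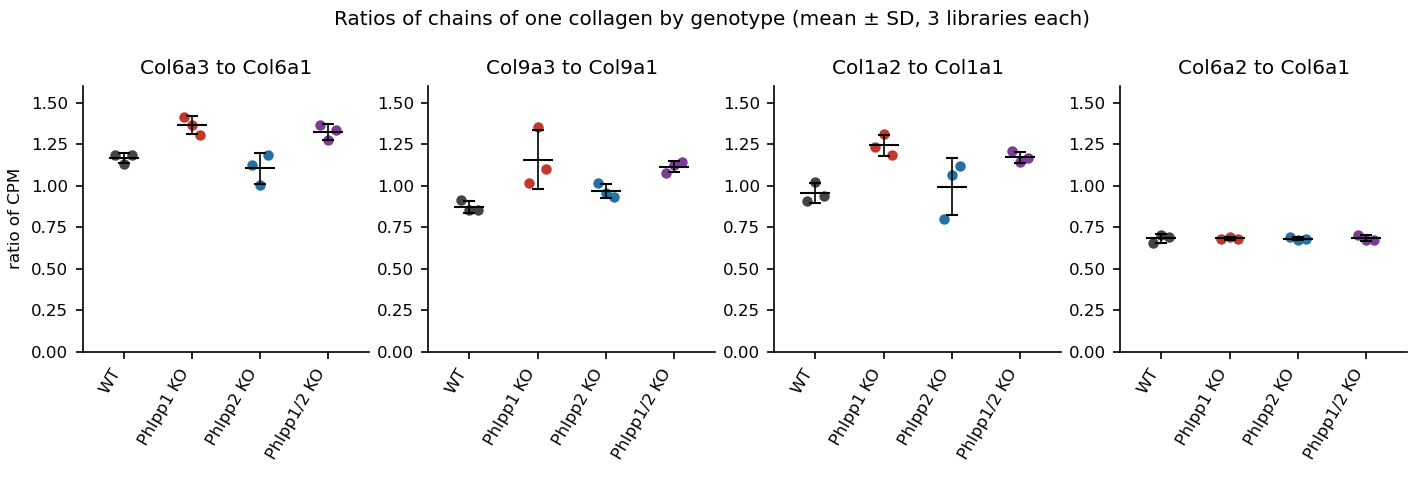
Ratio of CPM between chains of collagens VI, IX and I by genotype, with 1 point per library and the mean ± SD of 3 libraries. Col6a3 to Col6a1 is 1.27 to 1.41 in the 6 libraries without Phlpp1 and 1.00 to 1.19 in the others, and Col6a2 to Col6a1 stays near 0.683 in all.

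The same split of libraries with and without Phlpp1 appeared in a pair of other ratios, neither past the threshold. Col9a3 to Col9a1 was 0.873 ± 0.035 in WT, 1.16 ± 0.18 in Phlpp1 KO, 0.968 ± 0.042 in Phlpp2 KO and 1.11 ± 0.033 in Phlpp1/2 KO (SD, n = 3; exact permutation p = 0.0061, adjusted p = 0.0549). The libraries without Phlpp1 were at 1.02 to 1.35 and the others at 0.851 to 1.01. Leaving out the 2 libraries with the Xist mismatch gave an adjusted permutation p of 0.0286. Col1a2 to Col1a1 was 0.955 ± 0.060 in WT, 1.24 ± 0.062 in Phlpp1 KO, 0.995 ± 0.17 in Phlpp2 KO and 1.17 ± 0.033 in Phlpp1/2 KO (SD, n = 3; exact permutation p = 0.0321, adjusted p = 0.115). It was 1.14 to 1.31 in libraries without Phlpp1 and 0.797 to 1.12 in the rest. Of 11 ratios examined, these 3 had ranges that did not overlap between libraries with and without Phlpp1. Without the 2 libraries with the Xist mismatch the Col9a2 to Col9a1 ratio did not overlap either. This grouping of the libraries was made after the values were seen and carries no test. The share of other gene pairs without overlap in this split was not computed, so the count of 3 has no background. The gaps were narrow for Col9a3 to Col9a1 (1.017 against 1.014) and Col1a2 to Col1a1 (1.14 against 1.12). Neither Col9a3, on chromosome 2, nor Col1a1 and Col1a2, on chromosomes 11 and 6, shares a chromosome with Phlpp1. Col9a1 lies on the chromosome of Phlpp1, 81.9 Mb from it. The part of these positions in the ratios was not tested.

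The ratio of Col5a2 to Col5a1, the collagen V chains, had another pattern. It was 2.08, 2.099 and 1.93 in WT, 2.15, 2.22 and 2.37 in Phlpp1 KO, 3.02, 2.23 and 2.57 in Phlpp2 KO and 2.60, 2.43 and 2.47 in Phlpp1/2 KO. All 9 knockout libraries lay above all WT libraries, and the difference across genotypes did not pass (exact permutation p = 0.0224, adjusted p = 0.101). Without Phlpp2 KO 2 the adjusted permutation p was 0.00584, and over the other alternatives it was 0.0713 to 0.319.

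Chains of 1 protein mostly moved together across libraries. Over 12 pairs chosen after the values were seen, Col9a1 and Col9a2 had an r of 0.971, Col11a1 and Col11a2 of 0.910, Col1a1 and Col1a2 of 0.875 and Col5a1 and Col5a2 of 0.780, with an adjusted permutation p of 8e-05, 0.000264, 0.00056 and 0.0016. Their rho values were 0.944, 0.923, 0.734 and 0.629 (adjusted permutation p = 0.0002, 0.00024, 0.0141 and 0.0487). Col9a1 and Col9a3 had an r of 0.845 (rho 0.776, adjusted permutation p = 0.0013 and 0.00958), and 0.640 without Phlpp1 KO 1 and Phlpp1/2 KO 3. Without the 2 farthest libraries the r values were 0.918, 0.786, 0.809 and 0.715. Col3a1 and Col5a2, tail-to-tail neighbours on chromosome 1, had an r of 0.625 (rho 0.566, adjusted permutation p = 0.0274 and 0.0777), and 0.469 without WT 1 and Phlpp1/2 KO 3. The pairs within collagens IV, VI and VIII given elsewhere belong to the same 12 pairs. Adjusted p-values over these 12 therefore test nothing fixed in advance.

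The basement membrane group was low in these libraries, and its members overlapped WT in each knockout except for Col4a3 in Phlpp1 KO. Col4a1 and Col4a2, the ubiquitous collagen IV chains whose genes lie head to head on chromosome 8, were at 31.7 to 75.4 and 43.8 to 74.6 CPM. Their r of 0.869 (rho 0.490, adjusted permutation p = 0.00293 and 0.119) rested on Phlpp1 KO 1, the lowest library, and Phlpp2 KO 1, the highest, and was 0.287 without them. Endothelial markers summed to 3.06 CPM in Phlpp1 KO 1, 12.8 in Phlpp2 KO 1 and 5.43 to 12.9 in the others. Their part in the collagen IV values was not tested. Col4a5 and Col4a6, head to head on the X chromosome, had an r of 0.907 (rho 0.881, adjusted permutation p = 0.00012 and 0.000936), and 0.806 without Phlpp1 KO 2 and Phlpp2 KO 3. Both collagen IV pairs were chosen after the values were seen. Col4a5 was at 22.9 to 30.7 CPM in WT, 16.3 to 23.8 in Phlpp1 KO, 27.2 to 34.3 in Phlpp2 KO and 23.7 to 28.9 in Phlpp1/2 KO. Its log2 fold change in Phlpp1 KO against WT was -0.39 (unadjusted p = 0.0254, adjusted p = 0.18, edgeR), the smallest adjusted p of this group there. Phlpp1 KO and Phlpp2 KO were not compared with each other by test. Col18a1, the source of endostatin, was at 23.3 to 33.3 CPM and Col15a1 at 18.8 to 38.7. Col4a3, a chain of kidney and ear basement membranes, was at 0.407, 0.577 and 0.268 CPM in WT and 0.236, 0.131 and 0.235 in Phlpp1 KO. The log2 fold change of Col4a3 was -1.06 (SE 0.46, adjusted p = 0.215, edgeR) in Phlpp1 KO against WT and 0.67 in Phlpp1/2 KO against Phlpp1 KO (adjusted p = 0.689). All 12 libraries held only 4 to 17 counts of it. Col4a3 lies on chromosome 1, at 23.4 Mb from Phlpp1, and the part of this position in its values was not tested. Col4a4 and Col7a1 averaged 0.503 and 2.90 CPM.

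Col25a1, a transmembrane collagen first described in brain, had the smallest adjusted p of any collagen in Phlpp1 KO against WT. It was at 5.88, 11.1 and 12.3 CPM in WT, 5.42, 2.79 and 4.31 in Phlpp1 KO, 5.86, 6.58 and 7.74 in Phlpp2 KO and 7.76, 5.84 and 4.90 in Phlpp1/2 KO. All Phlpp1 KO libraries lay below all WT libraries, and WT 1 was within the range of the other knockouts. The log2 fold change in Phlpp1 KO was -1.23 with a 95% interval of -1.88 to -0.59 (SE 0.29, unadjusted p = 0.00135, adjusted p = 0.0851, edgeR). DESeq2 gave the same size of change with an adjusted p of 0.00189, and without WT 1 edgeR gave -1.47 with an adjusted p of 0.0402. Over all alternatives the log2 fold change ranged from -1.48 to -0.99 and the adjusted p from 0.00189 to 0.229. In Phlpp1/2 KO against WT it was -0.67 (adjusted p = 0.41), also the largest change of any collagen there, and the interaction was 1.11 (95% interval 0.21 to 2.01, adjusted p = 0.229).

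The other transmembrane chains were rare. Col17a1, a hemidesmosome collagen of epithelium, was at 3.07 to 4.94 CPM, Col23a1 at 0.650 to 1.84 and Col13a1 at 0.345 to 0.788. Col23a1 had the second largest log2 fold change in Phlpp1/2 KO against WT, 0.64 (SE 0.32, adjusted p = 0.498, edgeR). The summed CPM of the 4 chains, mostly Col25a1, was 15.4 ± 3.15 in WT, 9.67 ± 1.31 in Phlpp1 KO, 12.4 ± 0.39 in Phlpp2 KO and 11.5 ± 1.44 in Phlpp1/2 KO (SD, n = 3; exact permutation p = 0.0218, adjusted p = 0.101). Summed CPM of all collagens was 55376 ± 10488, 56561 ± 7146, 51406 ± 5567 and 48118 ± 8973 in the same order (SD, n = 3; exact permutation p = 0.594, adjusted p = 0.846).

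The FACIT chains outside collagen IX were led by Col12a1, which binds collagen I fibrils, at 348 to 549 CPM, and Col16a1 at 150 to 241. Col14a1, Col20a1 and Col22a1 were at means of 1.31, 0.814 and 0.994 CPM. Col22a1, a collagen of muscle-tendon junctions, was at 0.679, 0.937 and 0.803 CPM in WT and 1.56, 1.09 and 1.27 in Phlpp2 KO, without overlap. Its log2 fold change of 0.68 (SE 0.26, adjusted p = 0.282, edgeR) was the second largest of Phlpp2 KO against WT. Ahead of it stood Col26a1, with -1.16 (SE 0.63, adjusted p = 0.443), a gene with 1 to 23 counts per library, whose value in Phlpp1/2 KO against Phlpp2 KO was 0.86 (adjusted p = 0.681). Col28a1, a chain related to collagen VI, was at 1.81, 1.33 and 1.68 CPM in WT and 2.62, 2.07 and 2.00 in Phlpp1 KO. Its interaction term of -0.95 (SE 0.31, adjusted p = 0.178, edgeR) had the smallest adjusted p of any collagen for that term. The 4 genes below the filter held 0 to 10 counts per library, with Col19a1 at 0.0331 to 0.345 CPM.

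Groups without overlap were no more frequent among collagens than among all genes in 4 of the 5 pairwise comparisons. In Phlpp1 KO against WT, 4 of 40 collagens (10.0%) had no overlap, where 28.2% of all tested genes had none: Col28a1 was higher and Col4a3, Col25a1 and Col1a1 were lower. In Phlpp2 KO against WT it was 5 of 40 (12.5%, all genes 19.1%), in Phlpp1/2 KO against WT 5 of 40 (12.5%, all genes 18.9%) and in Phlpp1/2 KO against Phlpp2 KO 3 of 40 (7.5%, all genes 12.4%). In Phlpp1/2 KO against Phlpp1 KO it was 8 of 40 (20%, all genes 13.2%): Col4a3 and Col23a1 were higher and Col6a1, Col6a2, Col6a3, Col10a1, Col15a1 and Col28a1 were lower. None of these passed the adjusted test, and comparisons that share a group share its libraries.

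Genes that make, cut and read collagens were examined by the same test, in which 0.0121 to 0.537% of all genes were called, so lists of this size would hold less than 1 call. Of 23 genes for chain synthesis and folding, such as prolyl and lysyl hydroxylases, all 23 were tested and 0 were called in any comparison by edgeR. Of 16 genes for procollagen cutting and crosslinking 13 were tested, and of 11 collagen receptors and uptake genes 9, also with 0 calls. Their median log2 fold changes against WT lay between -0.08 and 0.08, beside -0.02 to 0.00 for all genes. Furin, a protease that activates procollagen-processing enzymes, was at 159 ± 11.7 CPM in WT, 141 ± 6.43 in Phlpp1 KO, 142 ± 4.04 in Phlpp2 KO and 134 ± 6.53 in Phlpp1/2 KO (SD, n = 3), with adjusted p = 0.143, 0.278 and 0.181 (edgeR). Bmp1, which cuts off the C-terminal procollagen extension, had log2 fold changes of -0.16, -0.17 and -0.15 (adjusted p = 0.223, 0.307 and 0.435). Itga1, a subunit of a collagen-binding integrin, had 0.31 in Phlpp2 KO against WT (adjusted p = 0.206) and -0.48 in Phlpp1/2 KO against Phlpp2 KO (adjusted p = 0.0966). Ddr1, a collagen-activated receptor kinase, had -0.27 in Phlpp1 KO and -0.29 in Phlpp1/2 KO (adjusted p = 0.111 and 0.243). Among synthesis genes the smallest adjusted p in Phlpp1 KO was that of the lysyl hydroxylase gene Plod3, 0.112 at a log2 fold change of 0.24. In Phlpp1/2 KO it was that of the prolyl hydroxylase gene P3h2, 0.217 at -0.45.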

How the data were processed

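Raw counts per gene were deposited by the authors in 1 table of 12 samples. Per the submitters' processing notes, the tools were bcl2fastq 2.17, STAR 2.5.2b and featureCounts of Subread 1.5.2, with genome build mm10, and per the labels' protocols the libraries were made with the NEBNext Ultra II RNA kit. The strand setting of the counting is not given in the sources used here. Counts were analysed with edgeR 4.0.16 (R 4.3.3): genes were filtered with filterByExpr (16565 of 49315 kept), scaled by TMM, fitted with all 12 libraries in 1 model of 4 genotypes with the robust quasi-likelihood fit, and adjusted by Benjamini-Hochberg over all tested genes, with a threshold of 0.05. Standard errors and 95% intervals were derived from the test's p-value and degrees of freedom. Rows with a gene identifier but no symbol held 0.00419% of counts and stayed in the fit. CPM values use TMM-scaled library sizes, which limits comparison to relative amounts.

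Sums and ratios were tested by an exact permutation test over 18 measures, and correlations by two-sided permutation with 100000 resamples. Gene models are from GENCODE vM21. The per-kb scale by longest coding transcript and the 12 chain pairs were chosen after the data were seen. The members and lists were chosen with earlier results of these data known. Named genes are the 5 cartilage and bone markers, the 3 most abundant members of each type, any called collagen, the 2 largest changes per comparison and up to 3 genes per companion list; further members were named after their values were seen. DESeq2 1.42.0, limma 3.58.1 (voom), other scalings, no filter, a replicate block and leaving out libraries were alternatives. The edgeR script was tested on simulated data.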

Additional observations from a re-analysis of the deposited data

How the results depend on the processing

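Called collagens numbered 0 in 91 of 95 alternatives. The share of all genes called in them ran from 0.00621 to 8.02%, with a median of 0.0940%, so 40 genes would hold less than 1 call in most of them. The exceptions were 1 gene, Col25a1, in Phlpp1 KO against WT with DESeq2, and a range of 0 to 1 when single libraries were left out, for Phlpp1 KO against WT (Col25a1, without WT 1) and for Phlpp1/2 KO against Phlpp2 KO and the interaction (Col8a1, without Phlpp1/2 KO 3). In these the share of all genes called was 8.02%, 0.223%, 0.784% and 7.11%. With the replicate number as a block, 0 collagens were called in each comparison. The share of all genes called was then 1.48, 0.507, 0.175, 0.0121, 0.0604 and 1.86%, in the order of comparisons used above. In the main fit it was 0.537, 0.121, 0.235, 0.0121, 0.0724 and 0.0483%. Whether the numbers pair the libraries remained unclear. Deviations of same-numbered libraries correlated at -0.216 to 0.404 and those of differently numbered ones at -0.370 to 0.349. Of 12 libraries, 4 correlated best with their own number.

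Of 413 alternative log2 fold changes for 27 results, 400 kept their sign. Leaving out single libraries moved Col2a1 between -0.15 and 0.15 in Phlpp1 KO and between -0.282 and 0.0104 in Phlpp2 KO, Col9a1 between -0.248 and 0.207 in Phlpp1 KO and between -0.458 and 0.015 in Phlpp1/2 KO, and in Phlpp2 KO Col11a1 between -0.0925 and 0.128 and Col1a1 between -0.174 and 0.416. Without Phlpp1 KO 1 and Phlpp1/2 KO 1 together, Col9a1 in Phlpp1 KO was -0.228, and with library totals alone Col11a1 in Phlpp2 KO was -0.00351. The causes were not tested.

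Among the 18 sums and ratios, 18 of 248 alternatives passed an adjusted p of 0.05. The lowest adjusted p was 0.00584, for Col5a2 to Col5a1 without Phlpp2 KO 2. Without that library Col10a1 to Col2a1 (0.0278), Col1a1 to Col2a1 (0.00877), Col9a3 to Col9a1 (0.0431) and the network sum (0.0381) also passed. Col1a2 to Col1a1 passed without Phlpp2 KO 1 (0.0187), the transmembrane sum without WT 1 (0.0199), Col9a2 to Col9a1 without Phlpp1 KO 1 (0.0343) and Col9a3 to Col9a1 without Phlpp1 KO 1 or 2 (0.00935 and 0.0140). Without Phlpp1 KO 1 and Phlpp1/2 KO 1 together, the unadjusted exact permutation p was 0.00159 for Col9a3 to Col9a1 and 0.0117 for Col6a3 to Col6a1. Leaving out single libraries gave unadjusted exact permutation p-values of 0.000714 to 0.00578 for Col6a3 to Col6a1, 0.000519 to 0.0237 for Col9a3 to Col9a1, 0.00455 to 0.415 for Col9a2 to Col9a1, 0.00104 to 0.0847 for Col1a2 to Col1a1, 0.000325 to 0.0887 for Col5a2 to Col5a1, 0.00617 to 0.255 for Col10a1 to Col2a1, 0.000974 to 0.251 for Col1a1 to Col2a1, 0.0106 to 0.467 for the network sum and 0.0011 to 0.0849 for the transmembrane sum.

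Without the 2 farthest libraries, r was 0.416 for Col2a1 with Col10a1, -0.105 for Col2a1 with Col1a1 and 0.287 for Col4a1 with Col4a2. It was 0.0998 for Col6a1 with Col6a3, 0.469 for Col3a1 with Col5a2 and -0.495 for Col8a1 with Col8a2. On deviations from genotype means it was 0.863 for Col6a1 with Col6a3 and -0.251 for Col8a1 with Col8a2. Depth limits the members under 1 CPM, where 1 count was 0.0295 to 0.0453 CPM.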
